A study of Mus musculus and Homo sapiens with 17 samples.

Results

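Gja1, Gjb2, Gjb5 and Gjb6 are 4 connexin genes of the epidermis. They were picked by symbol, in the mouse table as written and in the human table in capitals, and each symbol matched 1 row: 4 of 55988 features in mouse and 4 of 58958 in human cells. The choice was made with results of these libraries in view, so the p-values below describe the fit and are not independent evidence about these genes. Connexins are membrane proteins that assemble into hemichannels, and hemichannels of neighbouring cells dock into gap junctions through which ions and small molecules pass. Stratified epidermis uses several of them at once. GJA1 protein is the most widely expressed connexin and lies through the living layers, GJB2 and GJB6 proteins form mixed channels and are known to increase in proliferating and wounded epidermis, and mutations of human GJA1, GJB2 and GJB6 cause inherited skin or hearing disease. Gjb5 is expressed in differentiating keratinocytes of rodent skin.

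RNA sequencing (stranded mRNA libraries) compared lesions raised by DMBA/TPA, a carcinogen followed by a tumour promoter, in mice labelled Dusp1 knockout or wild type. Dusp1 encodes a phosphatase that switches off MAP kinases. The mouse groups were 2 squamous cell carcinomas (SCC) labelled KO, 3 papillomas labelled KO, 3 WT SCC and 3 samples of WT skin that was also treated with DMBA/TPA, in C57BL/6-129 mice of unstated age. The human groups were A431 cells, an established squamous carcinoma line, carrying an sgRNA against DUSP1 (A431 KO, n = 3) or against Tomato (A431 control, n = 3). They came from tumours 3 weeks after 100000 cells were placed intradermally, with mouse cells removed by a depletion kit. The labels do not say how the Dusp1 allele was made, whether the A431 KO line is 1 clone, or which mice or tumours the replicates came from. The descriptions of A431 KO replicates 2 and 3 end in the same suffix, and these libraries were closer to each other (chi-square per degree of freedom 4.79) than to replicate 1 (12.1 and 10.9), against 3.34 to 6.44 between control libraries. Each p-value is thus about the scatter of these samples, which may be technical. Mouse RNA came from whole tissue sections although the labels name keratinocytes, so fewer cells of a type and less RNA per cell cannot be told apart.

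Totals ran from 34.4 to 47.9 M counts in the mouse libraries and from 41.2 to 53.5 M counts (M, 1000000) in the A431 libraries. Dusp1 did not bear out the mouse labels: it had 139 and 174 CPM (counts per 1000000 counts of the scaled library) in SCC labelled KO, 109 to 129 CPM in papillomas labelled KO, 66.6 to 83.7 CPM in WT SCC and 52.4 to 109 CPM in WT skin. A deletion that leaves the counted transcript in place would not show in these values, and the sources used here do not say what was deleted. In A431 cells DUSP1 was at 71.0 to 77.1 CPM in KO and 467 to 485 CPM in control cells. Keratinocyte transcripts were present in each mouse library: 7 basal keratinocyte genes summed to 45396 and 49124 CPM in SCC labelled KO, 36093 to 58575 in papillomas labelled KO, 35981 to 38356 in WT SCC and 6714 to 14412 in WT skin. WT skin also held 4997 to 5988 CPM of 6 skeletal muscle genes, against 4.65 to 105 CPM in the lesions. A pair of libraries stood apart from their groups. WT skin replicate 3 had 306 CPM of melanocyte genes against 39.7 and 66.2 in the other skin libraries, and 4781 CPM of fibroblast genes against 36396 and 18819. Sex markers ran in part with the difference between lesions and skin. Y-linked genes had 4779 counts in SCC labelled KO replicate 2, 0 counts in the other 7 lesion libraries, and 6624, 9552 and 7 counts in WT skin. Xist, the transcript of the inactive X chromosome, was at 15.3 CPM in SCC labelled KO replicate 2, 203 to 497 CPM in the other 7 lesion libraries, and 0.0745, 0.705 and 382 CPM in WT skin. Only skin replicate 3 had sex markers like those 7 lesions, too few for a comparison within 1 sex. The part of sex in the differences from skin was thus not tested. SCC labelled KO replicate 2 also differed in these markers from the WT SCC and the papillomas. The part of sex in the comparisons of SCC labelled KO with those lesions was not tested either.

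The promoter windows of the 4 genes are shown because 2 of them, Gjb2 and Gjb6, are neighbours that moved together below, while Gja1 and Gjb5 each went their own way. Each runs from 250 bases before to 50 bases after the annotated start, on the gene's strand, as given by RefSeq for GRCm38.p6. Capitals mark matches on either strand to the AP-1 motif, searched as TGANTCA. They also mark the GC box, searched with the letters GGGCGG. The last motif searched was the TATA box, with the letters TATAAA, and no match overlapped another. The windows are chr10:56377050-56377349 on the plus strand for Gja1, chr14:57104653-57104952 on the minus strand for Gjb2, chr14:57133562-57133861 on the minus strand for Gjb6 and chr4:127358115-127358414 on the minus strand for Gjb5.
Gja1 promoter: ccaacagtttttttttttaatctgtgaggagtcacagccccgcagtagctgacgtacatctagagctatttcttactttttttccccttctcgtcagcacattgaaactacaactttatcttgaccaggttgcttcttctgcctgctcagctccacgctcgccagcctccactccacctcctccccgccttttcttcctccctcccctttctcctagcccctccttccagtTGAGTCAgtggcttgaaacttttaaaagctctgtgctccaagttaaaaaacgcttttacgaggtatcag
Gjb2 promoter: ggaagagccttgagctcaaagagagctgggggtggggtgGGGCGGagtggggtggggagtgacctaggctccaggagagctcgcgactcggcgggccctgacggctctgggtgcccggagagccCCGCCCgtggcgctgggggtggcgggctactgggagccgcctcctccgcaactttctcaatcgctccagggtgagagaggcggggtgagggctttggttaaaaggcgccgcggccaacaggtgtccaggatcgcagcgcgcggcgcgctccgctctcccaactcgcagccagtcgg
Gjb6 promoter: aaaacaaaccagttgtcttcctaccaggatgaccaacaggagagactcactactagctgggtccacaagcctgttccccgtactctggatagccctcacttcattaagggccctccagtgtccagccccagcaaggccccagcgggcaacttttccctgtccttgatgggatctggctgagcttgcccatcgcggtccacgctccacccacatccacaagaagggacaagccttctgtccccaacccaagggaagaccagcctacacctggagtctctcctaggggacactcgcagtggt
Gjb5 promoter: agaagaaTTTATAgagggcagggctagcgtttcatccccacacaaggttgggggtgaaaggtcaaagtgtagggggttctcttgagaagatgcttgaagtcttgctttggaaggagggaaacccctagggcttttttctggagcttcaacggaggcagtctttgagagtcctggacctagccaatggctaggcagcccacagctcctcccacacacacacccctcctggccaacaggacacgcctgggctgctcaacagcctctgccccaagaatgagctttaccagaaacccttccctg
The Gja1 window held an AP-1 match from -19 to -13 relative to the start, a motif found in 7.81% of the 32851 promoters in the table. In the Gjb2 window there were 2 GC boxes, at -211 to -206 and at -126 to -121; 35.7% of promoters hold that motif. The Gjb5 window had TTTATA, the reverse complement of the TATA box, at -243 to -238, and 13.6% of promoters hold that motif. No match to the 3 motifs was present in the Gjb6 window. The neighbours differed in base composition, with 70% G and C in the Gjb2 window and 57.3% in the Gjb6 window, against 47.7% for Gja1 and 54.3% for Gjb5. These matches are descriptions of letters and show no binding.

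The genes themselves lie, in GRCm38 with GENCODE M21, at chr10:56377330-56402513 (Gja1, ENSMUSG00000050953.10, plus strand), chr14:57098600-57104702 (Gjb2, ENSMUSG00000046352.7, minus strand), chr14:57123303-57133611 (Gjb6, ENSMUSG00000040055.9, minus strand) and chr4:127354809-127358181 (Gjb5, ENSMUSG00000042357.2, minus strand). No annotated gene overlaps any of them. Gjb2 and Gjb6 are 18.6 kb apart.

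Gjb2, one of the channel partners named above, was several times higher in each kind of lesion than in WT skin, and the lesion groups overlapped each other. It had 917 and 1258 CPM in SCC labelled KO, 1398, 1039 and 1328 CPM in papillomas labelled KO, 1082, 1133 and 1083 CPM in WT SCC, and 196, 235 and 365 CPM in WT skin. The lowest lesion library was thus above the highest skin library, while the 3 lesion groups overlapped. Against WT skin, Gjb2 was 4.10-fold higher in SCC labelled KO (log2 2.04 ± 0.25 SE, edgeR adjusted p = 0.000119), 4.73-fold higher in papillomas labelled KO (2.24 ± 0.24, adjusted p = 6.19e-05) and 4.14-fold higher in WT SCC (2.05 ± 0.24, adjusted p = 9.1e-05).

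Gjb6, its neighbour and channel partner, was also several times higher in each kind of lesion than in WT skin. Its levels were 238 and 323 CPM in SCC labelled KO, 367, 283 and 277 CPM in papillomas labelled KO, 273, 241 and 258 CPM in WT SCC, and 50.1, 60.2 and 53.4 CPM in WT skin. Lesions and skin did not overlap. The lowest papilloma was just above the highest WT SCC library (277 against 273 CPM), and SCC labelled KO overlapped both groups. Gjb6 was 5.13-fold higher than in WT skin in SCC labelled KO (log2 2.36 ± 0.18 SE, edgeR adjusted p = 8.69e-06), 5.66-fold higher in papillomas labelled KO (2.5 ± 0.17, adjusted p = 5.91e-06) and 4.72-fold higher in WT SCC (2.24 ± 0.17, adjusted p = 9.33e-06).

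**Figure D1:**
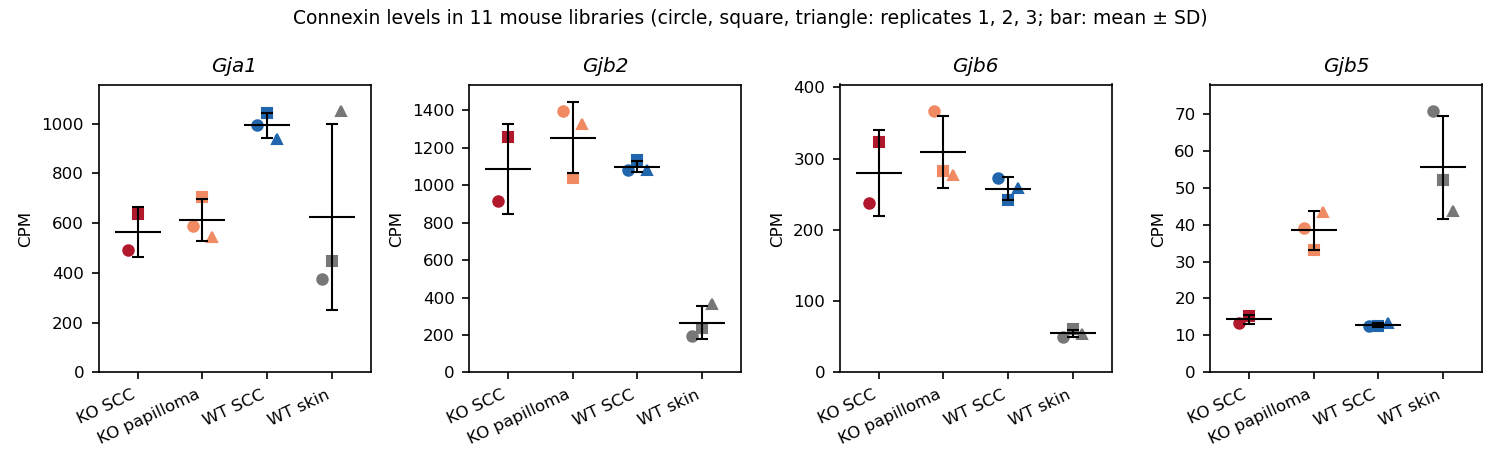
CPM of Gja1, Gjb2, Gjb6 and Gjb5 in 11 mouse libraries, 1 panel per gene with its own axis from 0; symbols are replicates, the long bar is the group mean and the whiskers are the SD, with KO standing for the KO label. Gjb2 and Gjb6 are low in WT skin, Gjb5 is low in both carcinoma groups, and Gja1 is highest in WT SCC and in WT skin replicate 3.

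Among the lesions, no difference in Gjb2 or Gjb6 passed the threshold. For SCC labelled KO over WT SCC the log2 fold change was -0.02 ± 0.25 SE for Gjb2 (edgeR adjusted p = 0.987) and 0.12 ± 0.18 for Gjb6 (adjusted p = 0.738). For papillomas labelled KO over WT SCC it was 0.19 ± 0.23 for Gjb2 (adjusted p = 0.717) and 0.26 ± 0.16 for Gjb6 (adjusted p = 0.411). For SCC over papillomas labelled KO it was -0.21 ± 0.26 for Gjb2 (adjusted p = 0.743) and -0.14 ± 0.18 for Gjb6 (adjusted p = 0.750). With these errors, changes below 2-fold could have gone undetected in each of these comparisons. Between SCC and papillomas labelled KO, changes of 2-fold or more could also have been missed. There 0.286% of all genes were called, and Gjb5 at -1.42 ± 0.21 SE had an edgeR adjusted p of 0.0300. The counts of Gjb2 stood in a steady proportion to those of Gjb6, at 3.86 and 3.90 in SCC labelled KO, 3.81, 3.67 and 4.80 in papillomas labelled KO, 3.96, 4.70 and 4.19 in WT SCC and 3.91 and 3.90 in the first 2 skin libraries. Skin replicate 3 departed from this, with a ratio of 6.84.

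The 7 epithelial genes (Cdh1, Epcam, Krt8, Krt18, Dsp, Jup and Cldn1) summed to 2314 and 2533 CPM in SCC labelled KO, 2206 to 3987 in papillomas labelled KO, 2338 to 2892 in WT SCC and 1453 to 1784 in WT skin. The sum was higher in each lesion library than in each skin library, but single genes went both ways at edgeR adjusted p under 0.05. Against WT skin 3 were higher and 1 lower in SCC labelled KO, and 4 higher and 1 lower in papillomas labelled KO. In WT SCC 3 were higher and 3 lower. Of all genes tested, 44.8%, 39.6% and 40.5% were called in these comparisons. The part of epithelial RNA in the Gjb2 and Gjb6 differences was not tested. Per 1000 CPM of these genes, a scale chosen after the values were seen, Gjb2 was at 396 and 496 in SCC labelled KO, 333 to 471 in papillomas labelled KO, 392 to 463 in WT SCC and 131 to 232 in WT skin. Gjb6 on that scale was at 103 and 127 in SCC labelled KO, 69.4 to 128 in papillomas labelled KO, 83.4 to 117 in WT SCC and 33.7 to 34.5 in WT skin. On that scale the lesion and skin libraries did not overlap for either gene. Set against the 7 basal keratinocyte genes instead, both genes overlapped between lesions and skin. Gjb2 was at 18.7 and 27.7 per 1000 CPM in SCC labelled KO, 23.9 to 33.2 in papillomas labelled KO, 28.5 to 30.1 in WT SCC, and 17.01, 16.3 and 54.4 in WT skin. Gjb6 was at 4.83 and 7.11 in SCC labelled KO, 6.27 to 7.84 in papillomas labelled KO, 6.29 to 7.20 in WT SCC, and 4.35, 4.18 and 7.96 in WT skin, with skin replicate 3 above each lesion for both genes.

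**Figure D2:**
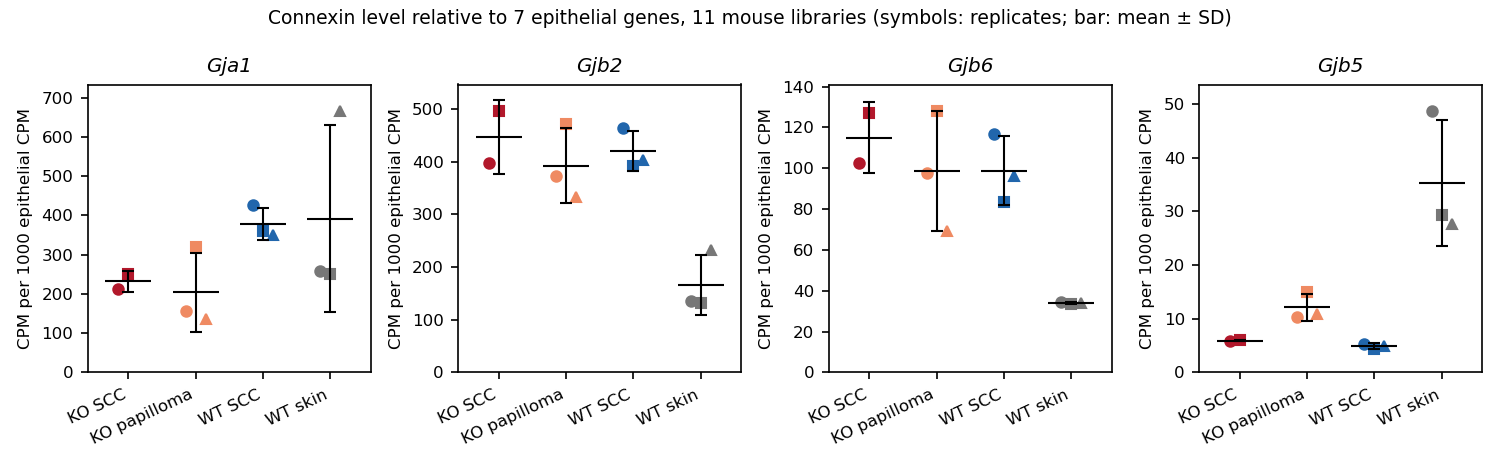
CPM of each gene per 1000 summed CPM of 7 epithelial genes in 11 mouse libraries, on axes from 0; symbols are replicates and bars show mean and SD, with KO standing for the KO label. Gjb2 and Gjb6 are lower in WT skin than in the lesions, Gjb5 is at 27.6 or above in WT skin and at 14.96 or below in the lesions, and Gja1 is lower in both groups labelled KO than in WT SCC.

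Gjb5 ran the other way in carcinomas and separated papillomas from them. It had 13.5 and 15.2 CPM in SCC labelled KO, 39.0, 33.0 and 43.5 CPM in papillomas labelled KO, 12.5, 12.7 and 13.4 CPM in WT SCC, and 70.8, 52.2 and 43.6 CPM in WT skin. The papillomas lay between the carcinomas and skin without overlapping either, although the highest papilloma and the lowest skin library nearly met. Gjb5 was 3.86-fold lower in SCC labelled KO than in WT skin (log2 -1.95 ± 0.21 SE, edgeR adjusted p = 5.5e-05) and 4.32-fold lower in WT SCC than in WT skin (-2.11 ± 0.18, adjusted p = 2.08e-05). In papillomas labelled KO it was 3.00-fold higher than in WT SCC (1.58 ± 0.18, adjusted p = 0.000603). WT papillomas were not analysed here, so lesion stage and KO label cannot be told apart in that difference.

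A pair of Gjb5 differences sat near the threshold. Gjb5 was 2.68-fold lower in SCC than in papillomas labelled KO (log2 -1.42 ± 0.21 SE, edgeR adjusted p = 0.0300), and leaving out either carcinoma, or papilloma replicate 1 or 3, raised the adjusted p to between 0.0738 and 0.308. It was 1.44-fold lower in papillomas labelled KO than in WT skin (-0.53 ± 0.18, adjusted p = 0.0344), and without skin replicate 1 the difference was -0.31 with adjusted p = 0.129. Without papilloma replicate 1 or 2 its adjusted p was 0.0761 or 0.111. Between the carcinomas Gjb5 did not pass the threshold: the log2 fold change of SCC labelled KO over WT SCC was 0.16 ± 0.20 (adjusted p = 0.681), with both KO libraries above the highest WT SCC library.

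The 9 suprabasal keratinocyte genes, which mark differentiating cells, had their highest sum in papillomas, whereas Gjb5 was highest in WT skin. Their sum was 8525 and 10242 CPM in SCC labelled KO, 13017 to 14050 in papillomas labelled KO, 5395 to 6449 in WT SCC and 4006 to 6839 in WT skin, and its part in the Gjb5 differences was not tested. At edgeR adjusted p under 0.05, 7 of these 9 genes were higher and 0 lower in papillomas labelled KO than in WT SCC. Of all genes tested, 3.49% were called higher there. In SCC labelled KO against WT SCC, 3 of the 9 were higher and 1 lower, against 7.87% of all genes called. Against WT skin, 7 of the 9 were higher and 0 lower in papillomas labelled KO, where Gjb5 was lower. There 3 were higher and 4 lower in SCC labelled KO, and 3 higher and 3 lower in WT SCC. Of all genes, 39.6%, 44.8% and 40.5% were called in these 3 comparisons. Per 1000 CPM of the epithelial genes, Gjb5 was at 5.82 and 6.02 in SCC labelled KO, 10.4 to 14.96 in papillomas labelled KO, 4.38 to 5.35 in WT SCC and 27.6 to 48.8 in WT skin.

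Gja1 was lower in each lesion labelled KO than in each WT SCC. It had 494 and 636 CPM in SCC labelled KO, 588, 705 and 544 CPM in papillomas labelled KO, 995, 1043 and 939 CPM in WT SCC, and 374, 447 and 1052 CPM in WT skin. The WT SCC group was tight (coefficient of variation 5.22%) and the skin group was spread (59.7%), because skin replicate 3 was more than 2 times the other skin libraries. In the fit of all 11 libraries the differences did not pass the threshold: Gja1 was 1.76-fold lower in SCC labelled KO than in WT SCC (log2 -0.81 ± 0.37 SE, edgeR adjusted p = 0.200) and 1.62-fold lower in papillomas labelled KO than in WT SCC (-0.70 ± 0.32, adjusted p = 0.268).

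The Gja1 error depended on which libraries shared the fit. Fitted on the 2 groups alone, the difference from WT SCC was -0.82 ± 0.16 in SCC labelled KO (edgeR adjusted p = 0.00790) and -0.69 ± 0.14 in papillomas labelled KO (adjusted p = 0.0151). Without skin replicate 3 in the shared fit, an alternative chosen after seeing the data, it was -0.83 ± 0.18 in SCC labelled KO (adjusted p = 0.0158) and -0.70 ± 0.16 in papillomas labelled KO (adjusted p = 0.0216). Against WT skin, Gja1 overlapped in each lesion group, with log2 fold changes of -0.14 ± 0.36 in SCC labelled KO (adjusted p = 0.757), -0.03 ± 0.32 in papillomas labelled KO (adjusted p = 0.951) and 0.67 ± 0.32 in WT SCC (adjusted p = 0.118). Leaving out skin replicate 3 gave 0.46 in SCC labelled KO (adjusted p = 0.0698), 0.59 in papillomas labelled KO (adjusted p = 0.0212) and 1.29 in WT SCC (adjusted p = 0.000326).

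A ratio within a library needs no scaling between libraries. Counts of Gja1 per count of Gjb2 were 0.538 and 0.506 in SCC labelled KO, 0.420, 0.679 and 0.410 in papillomas labelled KO, 0.920, 0.921 and 0.867 in WT SCC, and 1.91, 1.91 and 2.88 in WT skin. The lesions labelled KO, WT SCC and WT skin thus formed 3 ranges that did not overlap. How many other pairs of genes would separate like this was not computed. The ratio restates the Gjb2 difference from skin and the Gja1 difference from WT SCC, which was not called in the shared fit. Per 1000 CPM of the epithelial genes, Gja1 was at 213 and 251 in SCC labelled KO, 136 to 319 in papillomas labelled KO, 350 to 426 in WT SCC and 250 to 667 in WT skin. Set against the basal keratinocyte genes, Gja1 was at 10.05 and 14.02 in SCC labelled KO and 10.04 to 19.53 in papillomas labelled KO. It was at 26.1 to 27.2 in WT SCC and at 32.45, 31.01 and 156.7 in WT skin. On that scale each lesion library was below each skin library, so the direction against skin depended on the scale. Fibroblasts also express Gja1. The 7 fibroblast genes summed to 1054 and 3260 CPM in SCC labelled KO, 1747 to 3731 in papillomas labelled KO, 2361 to 4015 in WT SCC and 4781 to 36396 in WT skin, and their part in the Gja1 differences was not tested.

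The number of the 4 genes called can be read against all 22371 mouse genes tested, at adjusted p under 0.05. Between SCC labelled KO and WT SCC, 0 of the 4 were called by edgeR and 7.87% of all genes were; 1 of the 4, Gja1, had an unadjusted p under 0.05, and DESeq2 also called 0. Between papillomas labelled KO and WT SCC, 1 of the 4 was called and was higher, against 5.25% of all genes called and 3.49% called higher. Between SCC and papillomas labelled KO, 1 of the 4 was called and was lower, against 0.286% of all genes called and 0.237% called lower. Against WT skin, 3 of the 4 were called in each lesion group (Gjb2 and Gjb6 higher, Gjb5 lower). There, of all genes, 44.8% were called in SCC labelled KO (20.5% higher, 24.3% lower), 39.6% in papillomas labelled KO (17.1% higher, 22.4% lower) and 40.5% in WT SCC (16.9% higher, 23.6% lower). The groups did not overlap for Gja1 and Gjb5 between SCC labelled KO and WT SCC, which held for 46.6% of all genes, and for Gja1, Gjb5 and Gjb6 between papillomas labelled KO and WT SCC, which held for 26.6%. They did not overlap for Gjb5 between SCC and papillomas labelled KO (31.6% of all genes), nor for Gjb2, Gjb6 and Gjb5 against WT skin in SCC labelled KO (64.6%), papillomas labelled KO (49.4%) and WT SCC (54.7%). The 3 comparisons with skin share the same skin libraries and the comparisons with WT SCC share the same carcinomas, so they are not separate observations.

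**Figure D3:**
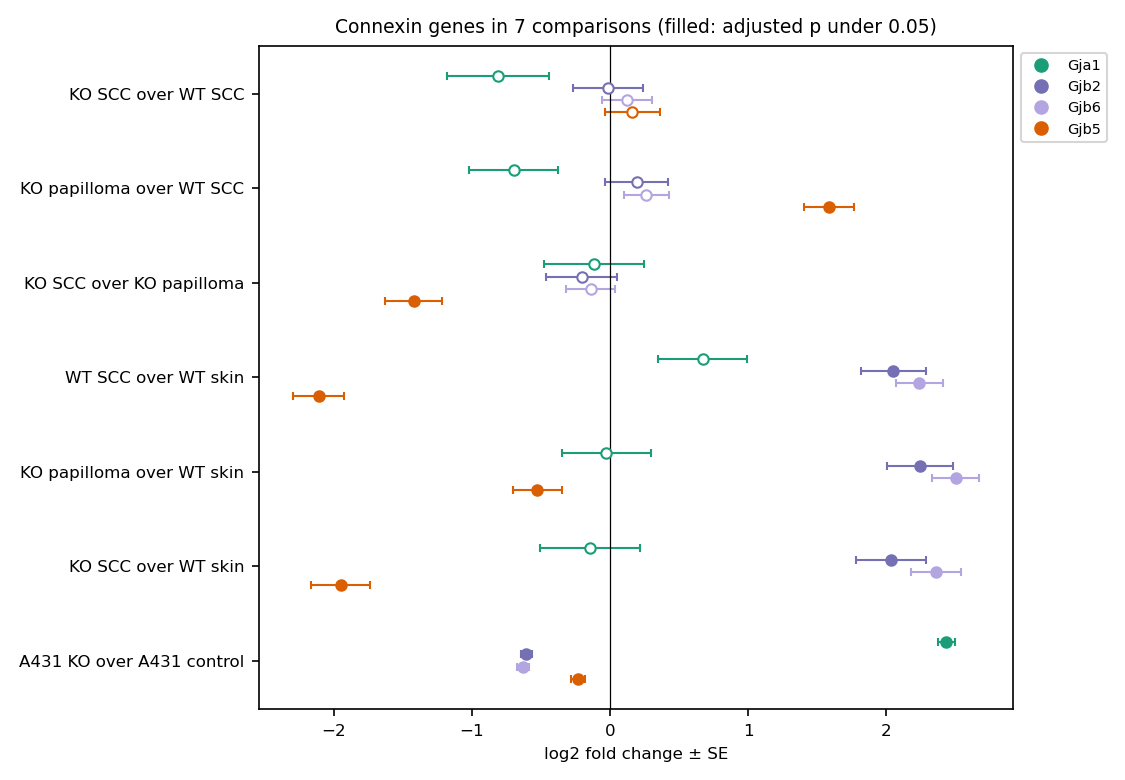
Log2 fold change with its SE (x axis) of the 4 connexin genes in 7 comparisons (rows), with filled points where the edgeR adjusted p is under 0.05 and KO in the mouse rows standing for the KO label. Gjb2 and Gjb6 lie together in each row, Gjb5 is below 0 in the 3 rows over WT skin, and GJA1 in A431 cells is at 2.43.

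Levels of different genes were compared per kilobase of mRNA (CPM divided by the length of the main annotated transcript). In each of the 8 lesion libraries Gjb2 was the highest connexin, followed by Gja1 and then Gjb6. Gjb2 was at 381 and 523 CPM per kb in SCC labelled KO, 432 to 581 in papillomas labelled KO and 450 to 471 in WT SCC. Gja1 was at 155 and 200 CPM per kb in SCC labelled KO, 171 to 222 in papillomas labelled KO and 295 to 328 in WT SCC. Gjb6 was at 113 and 153 in SCC labelled KO, 131 to 174 in papillomas labelled KO and 115 to 130 in WT SCC. The ranges of Gja1 and Gjb6 overlapped in papillomas, so their order there did not exceed the spread. In WT skin Gja1 was at 117 to 331 CPM per kb and Gjb2 at 81.4 to 152, with Gja1 above Gjb2 within each library although the ranges overlapped. Gjb5 at 25.3 to 41.2 and Gjb6 at 23.8 to 28.6 CPM per kb overlapped in skin.

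As a share of the summed CPM per kb of 20 connexin genes, Gjb2 and Gjb6 together made up 71.9% and 73.3% in SCC labelled KO, 65.0% to 71.2% in papillomas labelled KO, 61.6% to 63.0% in WT SCC and 29.1% to 34.6% in WT skin. Gjb5 made up 1.14% and 0.961% in SCC labelled KO, 2.14% to 2.61% in papillomas labelled KO, 0.775% to 0.856% in WT SCC and 4.16% to 11.4% in WT skin. Gja1 made up 21.7% and 22.6% in SCC labelled KO, 17.4% to 25.5% in papillomas labelled KO, 32.5% to 34.5% in WT SCC and 32.6% to 54.3% in WT skin. These shares describe the libraries and were not tested. The share of Gjb2 and Gjb6 was higher in each lesion than in each skin library, and higher in each lesion labelled KO than in each WT SCC. Shares within a library depend on each other, so a higher share need not be a higher level. SCC labelled KO replicate 1 had 381 CPM per kb of Gjb2 and 113 of Gjb6, below the WT SCC ranges (450 to 471 and 115 to 130). Replicate 2 had 523 and 153, above those ranges. Gja1 was at 155 and 200 CPM per kb in these carcinomas and 295 to 328 in WT SCC. The summed connexin level was 686.8 and 921.7 CPM per kb in SCC labelled KO, 870.4 to 1061 in papillomas labelled KO, 909.7 to 950.0 in WT SCC and 360.3 to 609.2 in WT skin.

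**Figure D4:**
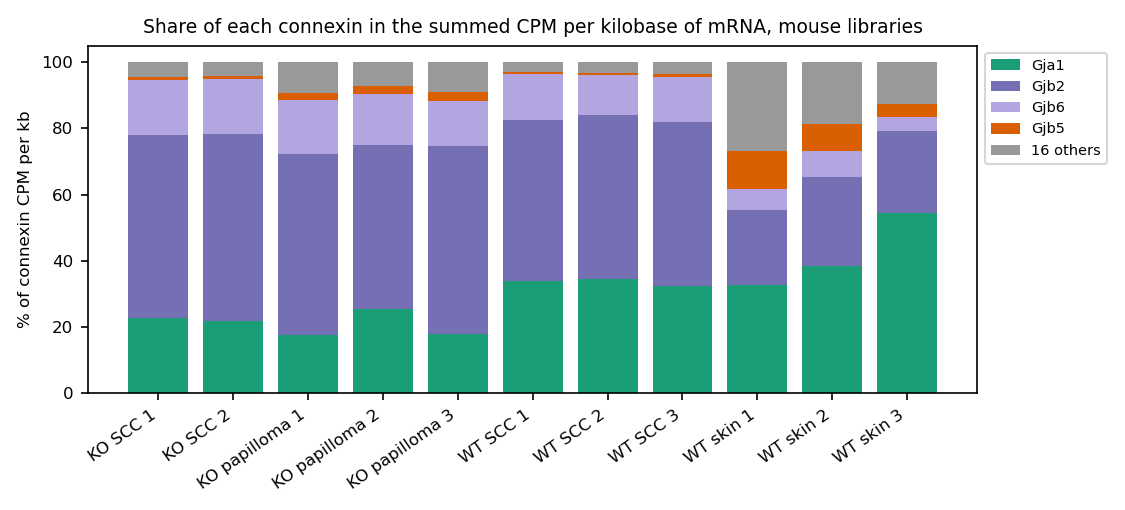
Share of each connexin in the summed CPM per kb of 20 connexin genes (y axis, %), 1 bar per mouse library, with KO standing for the KO label. The part of Gjb2 and Gjb6 is 29.1% to 34.6% in WT skin and at least 61.6% in the lesions, and the part of Gjb5 is at least 4.16% in WT skin and at most 2.61% in the lesions.

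The other connexins give the setting for these 4. Of the 20 connexin genes listed, 14 passed the filter on low counts in mouse. The 6 that did not included Gja6 (0 to 0.201 CPM), and Gja10, Gjd2, Gjd4 and Gje1, which were at 0 counts in the 11 libraries. In SCC labelled KO against WT SCC, 0 of 14 were called by edgeR (2 had an unadjusted p under 0.05, Gja1 and Gja5, and DESeq2 called 0); the median log2 fold change was -0.12, against -0.01 over all genes tested. In papillomas labelled KO against WT SCC, 4 of 14 were called, each higher (median 0.80, against 0.02 over all genes, of which 3.49% were called higher), with Gjb5 and Gjb1 among them. In SCC against papillomas labelled KO, 2 of 14 were called, each lower, with Gjb5 among them (median -1.13, against -0.05 over all genes, of which 0.237% were called lower).

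Gjb1, a connexin best known from liver and Schwann cells, was low throughout. It had 0.548 and 0.795 CPM in SCC labelled KO, 4.49, 2.48 and 3.20 CPM in papillomas labelled KO, 0.639, 0.741 and 1.05 CPM in WT SCC and 1.14, 1.85 and 0.987 CPM in WT skin. It was 4.17-fold higher in papillomas labelled KO than in WT SCC (log2 2.06 ± 0.38 SE, edgeR adjusted p = 0.0101) and 2.55-fold higher than in WT skin (1.35 ± 0.37, adjusted p = 0.0141). Leaving out WT SCC replicate 1 or 2 gave an adjusted p of 0.0526 or 0.0601 for the difference from WT SCC, and leaving out papilloma replicate 1 gave 0.0651 for the difference from skin.

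Against WT skin, 2 of 14 connexins were higher and 5 lower in SCC labelled KO (median log2 fold change -0.81, against -0.30 over all genes), 4 higher and 1 lower in papillomas labelled KO (0.06, against -0.22), and 2 higher and 5 lower in WT SCC (-0.62, against -0.16). Of all genes tested, 44.8% were called in SCC labelled KO, 39.6% in papillomas labelled KO and 40.5% in WT SCC, so the shares of connexins called were near the background. Gja5, the connexin of arterial endothelium, was 2.42-fold higher in papillomas labelled KO, with 10.0, 9.95 and 5.35 CPM against 3.25, 4.79 and 2.43 CPM in WT skin (log2 1.27 ± 0.35 SE, edgeR adjusted p = 0.0142). Gja3, the lens connexin, was lower in SCC labelled KO (-5.84 ± 1.89, adjusted p = 0.0269) and in WT SCC (-4.60 ± 1.42, adjusted p = 0.0244), which rested on its 3.95 CPM in skin replicate 3 against 0.0497 and 0.987 CPM in the other skin libraries; without that library it did not pass the filter. Gjc3, known from glial cells, was lower in WT SCC (-3.01 ± 0.998, adjusted p = 0.0327) and lost the call without WT SCC replicate 1 (adjusted p = 0.0927), WT SCC replicate 2 (0.104) or skin replicate 2 (0.0830). Endothelial Gja4, the broadly expressed Gjc1, and Gjd3 passed in no mouse comparison; their CPM ran from 3.64 to 10.7, from 4.77 to 8.13 and from 0.317 to 1.15 over the 11 libraries.

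Genes of 9 proteins that bind connexins were also read. Among the lesions, 1 was lower in papillomas labelled KO than in WT SCC, Nov (log2 -4.02 ± 0.92 SE, edgeR adjusted p = 0.0290), a secreted protein reported to bind the GJA1 tail. The Nov call was lost without any 1 of the 6 libraries (adjusted p 0.0553 to 0.0927). Against WT skin, 4 were higher and 3 lower in SCC labelled KO, 4 higher and 3 lower in papillomas labelled KO, and 4 higher and 2 lower in WT SCC, beside the 44.8%, 39.6% and 40.5% of all genes called in these comparisons. With 9 genes, nothing particular to the partners is read from these counts. Tjp1, the scaffold that caps gap junction plaques, was higher in SCC labelled KO (1.06 ± 0.13, adjusted p = 8.87e-05), papillomas labelled KO (0.86 ± 0.11, adjusted p = 0.000216) and WT SCC (0.61 ± 0.11, adjusted p = 0.00184) than in WT skin. Ezr, a membrane linker, was also higher in the 3 lesion groups (1.19 ± 0.16 in SCC labelled KO, 1.31 ± 0.14 in papillomas labelled KO and 0.80 ± 0.14 in WT SCC). Ubqln4 was higher in the 3 lesion groups and Nov in WT SCC, while Cnst and Cav1 were lower in the 3 lesion groups and Dbn1 in both groups labelled KO. For each of these 5 genes at least 1 of the calls was lost when 1 library was left out, with adjusted p from 0.0518 to 0.265. Of 3 pannexins, which form channels related to hemichannels, Panx3 was lower than in WT skin in SCC labelled KO (-4.50 ± 1.12, adjusted p = 0.00744), papillomas labelled KO (-2.43 ± 0.84, adjusted p = 0.0404) and WT SCC (-3.56 ± 0.89, adjusted p = 0.00880), and Panx1 was higher in papillomas labelled KO (0.46 ± 0.14, adjusted p = 0.0243). Both pannexin calls in papillomas were lost when 1 library was left out (adjusted p 0.0501 to 0.0826).

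In A431 cells the comparison is between cells whose DUSP1 transcript was low and control cells of the same line. GJA1 was 5.40-fold higher in A431 KO cells, and GJB2, GJB6 and GJB5 were lower. GJA1 had 155, 142 and 146 CPM in A431 KO cells and 26.2, 29.5 and 26.1 CPM in A431 control cells (log2 2.43 ± 0.06 SE, edgeR adjusted p = 2.38e-15). GJB2 had 810.2, 749.5 and 769.8 CPM in KO cells and 1169.8, 1197 and 1178 CPM in control cells, 1.52-fold lower (-0.61 ± 0.04, adjusted p = 2.68e-09). The KO and control cells did not overlap for either gene. GJB6 had 337, 314 and 309 CPM in KO cells and 492, 495 and 498 CPM in control cells, 1.55-fold lower (-0.63 ± 0.04, adjusted p = 3.62e-09). GJB5 had 67.6, 62.4 and 66.6 CPM in KO cells and 77.9, 75.1 and 77.7 CPM in control cells, a smaller difference of 1.17-fold (-0.23 ± 0.05, adjusted p = 0.00104). With only 1 of A431 KO replicates 2 and 3 in the fit, the 4 genes were called with the same signs, GJB5 with an adjusted p of 0.0131 without replicate 2 and 0.00332 without replicate 3.

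**Figure D5:**
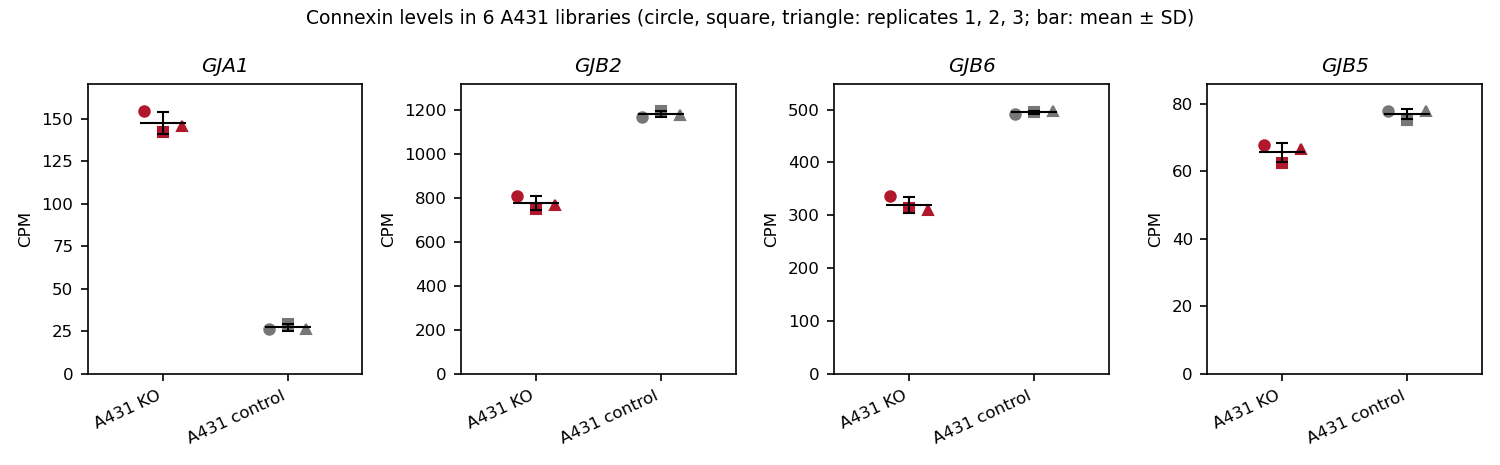
CPM of GJA1, GJB2, GJB6 and GJB5 in 3 A431 KO and 3 A431 control libraries, on axes from 0; symbols are replicates, the long bar is the mean and the whiskers are the SD. GJA1 is higher in KO cells and the other genes are lower, with no overlap in any panel.

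All 4 genes were called in A431 cells, 1 higher and 3 lower, against 47.6% of the 18090 genes tested (23.1% higher, 24.5% lower), and the groups did not overlap for 55.0% of all genes. The replicates of this line were close to each other, with a biological coefficient of variation of 6.11% in the fit, against 36.6% in the mouse fit. GJA1 counts per GJB2 count were 0.191, 0.190 and 0.189 in KO cells and 0.0224, 0.0247 and 0.0222 in control cells. GJB2 counts per GJB6 count were 2.41, 2.39 and 2.49 in KO cells and 2.38, 2.42 and 2.37 in control cells, so both fell while their ratio overlapped between the groups. The suprabasal keratinocyte genes were lower in sum too, at 16632 to 18360 CPM in KO cells and 24065 to 24777 CPM in control cells. The 7 epithelial genes summed to 6401 to 7056 CPM in KO cells and 7614 to 7686 CPM in control cells. Single genes went both ways at edgeR adjusted p under 0.05. Of 8 suprabasal genes tested 3 were higher and 2 lower, and of 7 epithelial genes 3 were higher and 3 lower. The part of these lists in the GJB2, GJB6 and GJB5 differences was not tested. Per 1000 CPM of the epithelial genes, GJB5 overlapped, at 8.845 to 10.57 in KO cells and 9.775 to 10.2 in control cells. Set against the basal keratinocyte genes it did not overlap, at 1.244 to 1.401 in KO cells and 1.556 to 1.626 in control cells. On both scales GJB2 and GJB6 were lower in KO cells without overlap. Mouse cells were depleted before RNA extraction, and 7 endothelial genes were at 1.26 to 1.78 CPM in KO cells and 0.922 to 1.15 CPM in control cells, with KDR at 0 in the 6 libraries. Other stromal lists were higher. The 6 mural genes summed to 395 to 462 CPM in KO cells and 433 to 444 in control cells. The 7 fibroblast genes summed to 160 to 174 CPM in KO cells and 198 to 202 in control cells. Which cells these transcripts came from was not tested.

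Of the 19 listed connexins with a row in the human table, 10 were tested, and 4 were higher and 4 lower in A431 KO cells (median log2 fold change -0.18, against 0.01 over all genes, of which 47.6% were called). Besides GJA1, the higher genes included GJC1, at 26.5, 29.4 and 31.2 CPM in KO cells and 19.8, 20.1 and 18.9 CPM in control cells (log2 0.57 ± 0.07 SE, edgeR adjusted p = 3.32e-06). GJA3 (-0.15, adjusted p = 0.115) and GJD3 (-1.06, adjusted p = 0.267) did not pass, and GJD2, below the filter, was at 0.170 to 0.242 CPM in KO cells and 0.0416 to 0.170 CPM in control cells. Of the 9 partners, DBN1 was higher (0.49 ± 0.06, adjusted p = 3.31e-06) and TJP1 (-0.56 ± 0.05, adjusted p = 6.43e-08), NEDD4 (-0.24 ± 0.05, adjusted p = 0.00128), UBQLN4 (-0.18 ± 0.05, adjusted p = 0.00622) and EZR (-0.13 ± 0.04, adjusted p = 0.00944) were lower. Of the pannexins, PANX1 was higher (0.34 ± 0.06, adjusted p = 0.000187) and PANX2 lower (-0.91 ± 0.09, adjusted p = 3.12e-07).

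Genes whose levels followed each connexin most closely were ranked by Pearson's r of log2 CPM over the 11 mouse libraries, among 13211 genes. These r values mirror the differences between groups, and share the depth and tissue make-up of the libraries, so they are given with no p. For Gjb2 they were Prep (r = 0.986), Ywhaz (0.986) and Slc35f6 (0.984), and for Gjb6 Ywhaz (0.989), Rab10 (0.987) and Myo5b (0.986), with Gjb2 and Gjb6 at 0.974 to each other. The closest genes to Gjb5 were Nrtn (0.992), Calm5 (0.992) and Pou2f3 (0.986). For Gja1 the closest were Cggbp1 (0.952), Josd1 (0.950) and Dcbld1 (0.948). Over the 6 A431 libraries, where r restates a difference between 2 groups, the closest of 12413 genes were CASC19, KRT77 and ALDH3A2 for GJA1, NPNT, PLSCR1 and IFI44 for GJB2, FCGR3B, EGLN1 and MAF for GJB6, and LYSMD2, RTF2 and AVPI1 for GJB5, with r of at least 0.997.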

How the data were processed

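Gene-level counts of reads were deposited by the authors in 1 table of 11 mouse and 1 of 6 A431 libraries. The tools listed, per the submitters' processing notes, are HISAT2, StringTie and DESeq, and the builds mm10 and hg38. For versions, annotation and strand settings the sources used here give nothing. Rows with no gene name (0.115% to 0.496% of mouse and 0.190% to 0.211% of A431 counts) were left out. Groups came from the labels' titles. The counts were tested with edgeR 4.0.16 (filterByExpr, TMM, quasi-likelihood F test, two-sided, Benjamini-Hochberg over all genes tested, threshold 0.05) in R 4.3.3, with 1 fit of the 4 mouse groups and 1 of the A431 groups. CPM are counts per 1000000 counts of the library scaled by its TMM factor (0.816 to 1.24 in mouse, 0.976 to 1.02 in A431). Replicates of a group differed by more than sampling noise (chi-square per degree of freedom 3.34 or more), so none was merged. Alternatives were DESeq2 1.42.0, RLE factors, no filter, a replicate block, 2-group fits and leaving out each library. The test was checked on simulated counts. The 4 genes, the gene lists and the tests were chosen with earlier results of these data known. Named besides the 4 genes are listed connexins that passed the filter or had at least 10 counts in 1 library, pannexins and partners past the threshold, the 3 genes most correlated with each of the 4, Dusp1, and marker sums, although some of these genes are not reported here; Gja10, Gjd4 and Gje1 were named as below the filter after their values were seen. Mouse transcript lengths (3.18 kb Gja1, 2.41 kb Gjb2, 1.72 kb Gjb5, 2.10 kb Gjb6) came from GENCODE M21; human levels were not compared between genes per length.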

Additional observations from a re-analysis of the deposited data

Results flagged for a closer look

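Gja1 and Gjb5 each had log2 fold changes of opposite sign in the mouse carcinomas and in A431 cells. In both systems the groups compared did not overlap for these genes. That held for 46.6% of all genes tested in the mouse comparison and 55.0% in A431 cells, so it is common. Gja1 had a log2 fold change of -0.81 in SCC labelled KO over WT SCC, and GJA1 had 2.43 in A431 KO over A431 control. Gjb5 had 0.16 ± 0.20 SE in SCC labelled KO over WT SCC (edgeR adjusted p = 0.681), and GJB5 had -0.23 in A431 KO over A431 control. The difference between the systems was not tested, since the tables hold different species and were fitted separately, and neither mouse value passed the threshold in the shared fit. Dusp1 was not lower in the mouse libraries labelled KO, so the mouse direction is that of a label.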

How the results depend on the processing

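Of 15 calls among the 4 genes in 7 comparisons, 13 passed the threshold under each alternative run; the exceptions were Gjb5 in SCC against papillomas labelled KO and Gjb5 in papillomas labelled KO against WT skin. Over 304 values of the 4 genes under alternatives, 268 had the same direction and side of the threshold, 19 changed sign, 11 lost a call and 6 gained one with the same sign; 1 of the 19, Gja1 in papillomas labelled KO over WT skin without skin replicate 3, was called after its sign changed. The cause of the changes was not tested.

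Replicate numbers did not pair the samples (correlations of same-numbered deviations -0.411 to 0.166 in mouse and -0.0275 to 0.00688 in A431). With a replicate block the genes called were 798 in SCC labelled KO against WT SCC, where the shared fit called 1760, and 1 in SCC against papillomas labelled KO, where it called 64, with 0 connexins; the block gave Gjb2 0.070 (SCC labelled KO over WT SCC), and Gja1 0.054 (SCC labelled KO over WT skin) and 0.071 (papillomas labelled KO over WT skin).

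Counts of genes moved by over 1.5 times in SCC labelled KO against WT SCC with DESeq2 (3466) and with the 2 groups alone (4160, with 2 connexins); in papillomas labelled KO against WT SCC (1175) with no filter (1854), DESeq2 (2232) and the 2 groups alone (1797); and in SCC against papillomas labelled KO with no filter (611, 5 connexins), DESeq2 (941, 5 connexins) and RLE factors (1 connexin). Sign changes under these settings, none of them in a called value, were Gjb2 in SCC labelled KO over WT SCC with RLE (0.024), no filter (0.042) and DESeq2 (0.024), and Gja1 in papillomas labelled KO over WT skin with no filter (0.026) and the 2 groups alone (0.011). Gja1 in WT SCC over WT skin gained a call with no filter (0.71, edgeR adjusted p = 0.0360). Gjb5 in papillomas labelled KO over WT skin lost it with no filter (-0.44), the block (-0.52) and the 2 groups alone (-0.50). No filter moved the median of all genes by 0.122 (log2) in SCC labelled KO over WT skin.

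Leaving out 1 library gave 302 to 2380 genes and 0 to 1 connexins in SCC labelled KO against WT SCC, 478 to 1505 and 3 to 5 in papillomas labelled KO against WT SCC, and 0 to 152 and 0 to 3 in SCC against papillomas labelled KO. Against WT skin it gave 5884 to 9891 and 4 to 7 in SCC labelled KO, 7239 to 8856 and 3 to 6 in papillomas labelled KO, and 6755 to 9585 and 5 to 7 in WT SCC; A431 cells gave 7435 to 9564 and 7 to 9. It moved values that were not called across 0: in SCC labelled KO over WT SCC Gjb2 from -0.26 to 0.20 and Gjb6 from -0.12 to 0.33; in SCC over papillomas labelled KO Gja1 from -0.31 to 0.058, Gjb2 from -0.45 to 0.0059 and Gjb6 from -0.38 to 0.065; and over WT skin Gja1 from -0.43 to 0.46 in SCC labelled KO and from -0.30 to 0.59 in papillomas labelled KO, where 0.59 passed the threshold (edgeR adjusted p = 0.0212). Leaving out a carcinoma labelled KO leaves a lone sample, which the fit assumes to vary like the other groups. In the comparisons without skin, the highest counts (2380, 1505 and 152 genes, with 1, 5 and 3 connexins) came from leaving out skin replicate 3. That library is outside these comparisons, and leaving it out was chosen after seeing the data. Leaving out libraries of the groups compared gave at most 975, 1100 and 84 genes, and at most 0, 4 and 2 connexins. The lowest level among the 4 genes was 12.5 CPM, of Gjb5 in WT SCC.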
